A study of Mesocricetus auratus with 36 samples.

Results

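The genes described here encode the machinery that fuses synaptic vesicles with the nerve terminal membrane, and their relatives in other membrane traffic. They were followed in the tanycyte-enriched ependymal strip of the hamster hypothalamus as a gauge of neuronal material in this tissue. Members were all gene IDs that begin or match as Syt, Syn1 to Syn3, Snap25, Sv2, Cplx, Rims, Stxbp, Unc13, Stx1, Vamp, Syp, Synj, Bsn or Pclo, with a mean of at least 0.5 CPM (read counts scaled to the library's total) over all libraries. Of 32340 genes in the tables, 60 matched by name and 55 were members. The member just above the limit was Cplx3 at 0.96 CPM, and the gene just below it was Syt2, a synaptotagmin, at 0.41 CPM. Syt8, Stx11, Cplx4 and Stx19 were also below it. Because the name pattern is broad, it takes in any gene beginning with Stx1, such as Stx12 and Stx18, which serve traffic inside the cell rather than release at synapses. Syp, Syt11 and Syt15 are not analysed here.

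Laser-cut tissue of 36 male golden hamsters (Mesocricetus auratus) was sequenced, with 6 animals in each of 6 groups and 1 library per animal. The labels give no genotype or strain, and all animals carried an abdominal temperature logger. Long photoperiod animals had 14 h of light at 22 °C and were 8 months old. All other groups had been moved to 10 h of light at 8 °C. Pre-hibernation animals were taken after 4 weeks, at 4 months of age. Late pre-hibernation animals were taken after 8 to 12 weeks, before any torpor, at 6 months. Interbout euthermia animals were taken 23 h into a warm interval and torpor animals 13 h into a bout, both after 3 cycles of torpor and arousal and at 6 months. Refractory animals, aged 8 months, were past hibernation after some 20 weeks in the cold, with no bout for 2 weeks or more. Because the protocol has long photoperiod animals killed at the start as well as the finish, the stated age may not hold for each of them. Day length and ambient temperature differ together between long photoperiod and every other group. Age also differs between long photoperiod and each other group except refractory. Among the groups in the cold, age and time in the cold room rise together. Where such factors change together, their effects cannot be told apart. Late pre-hibernation, interbout euthermia and torpor animals share the same labelled values of all of these.

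A vesicle is held ready for release by SNARE proteins: Vamp on the vesicle pairs with syntaxin and Snap25 on the terminal membrane. Unc13 proteins prime the vesicle, complexins hold the assembled SNAREs, and synaptotagmins sense calcium. The scaffolds Rims, Bsn and Pclo arrange this at the active zone, synapsins tether the reserve vesicles, Sv2 proteins sit in the vesicle membrane, and synaptojanins strip the coat during recycling. Tanycytes are glia at the base of the third ventricle, and their processes run among hypothalamic neurons and nerve terminals. For description the members were split by known use into 24 of the neuronal release core, 15 widely expressed trafficking members and 16 in neither list.

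Libraries held 5161108 to 28541745 counts, and members took 0.0901% to 0.2239% of them. No member was at 0 in any library, and 47 of 55 had at least 10 counts in every library. All 55 passed the filter on low counts. The labelled tissue was checked against its markers. All 11 tanycyte markers, among them Rax and Gpr50, were detected in every library. Their summed level was 2703 ± 620 to 3219 ± 303 normalised CPM by group (SD, n = 6). The 18 neuron markers in the tables, none of them a member, were also detected in every library and summed to 950 ± 149 to 1173 ± 267 by group. Tissue of this kind is bulk: fewer cells of a type and less RNA per cell cannot be told apart.

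Genes of ribosomal RNA took over 5% of the counts in 3 libraries and at most 0.826% in the other 33. The 3 are refractory 4 (41.8%, 5161108 counts), pre-hibernation 5 (9.28%) and interbout 6 (7.21%). Many results are given again without these rRNA-rich libraries. In these libraries the members separated by exon length. Long members, above the median of 4266 bases, deviated from the other animals of their group by a median of 0.94 log2 units in refractory 4. The short members there deviated by -0.63. In pre-hibernation 5 these medians were 0.72 and -0.28, and in interbout 6 they were 0.32 and -0.16. Across the 55 members Pearson's r between deviation and log2 length was 0.628, 0.431 and 0.462 in these libraries, as a description over genes that share each library. In the other 33 libraries r ran from -0.568 (refractory 6) to 0.22 (late pre-hibernation 4). For refractory 1, 3, 5 and 6 and pre-hibernation 4, where r was -0.44 or lower, the other animals of the group include an rRNA-rich library. Refractory 4 alone held the highest value of all 36 libraries for 15 members and the lowest for 18. Late pre-hibernation 4 stood apart in another way. It had the highest value for 16 members, and its neuronal release core lay a median of 0.64 above its group, against -0.04 for the widely expressed members. Its neuron markers summed to 1673 normalised CPM, the highest of all 36 libraries. Its tanycyte markers summed to 1584, the lowest of all 36.

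**Figure D1:**
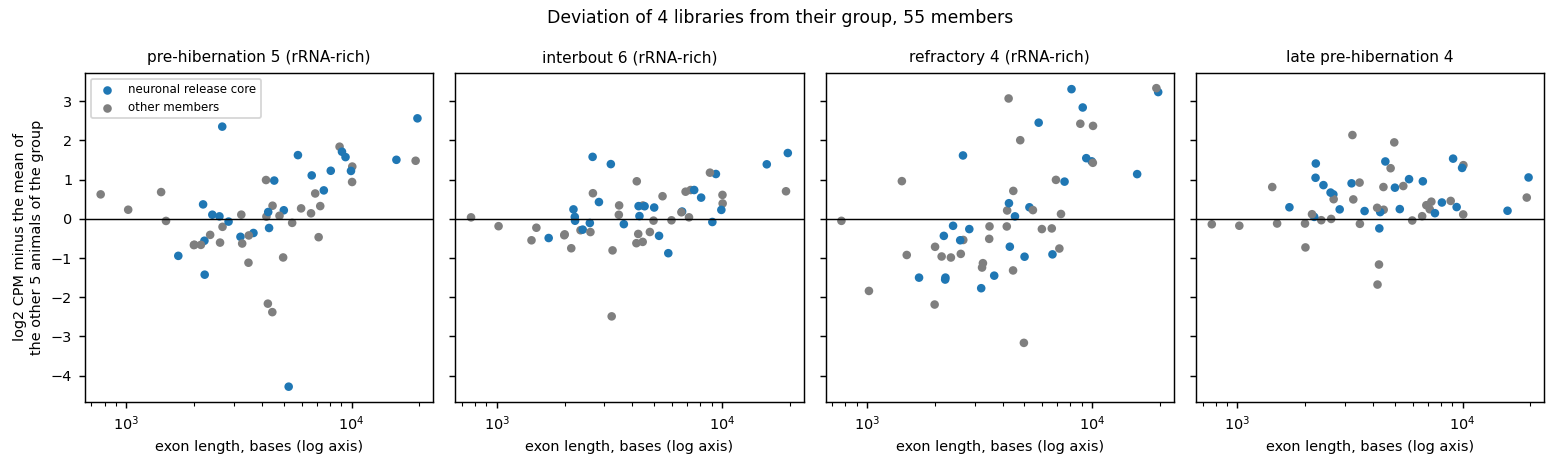
Each point is 1 of 55 members: the horizontal axis is its exon length in bases (log axis), and the vertical axis is its log2 normalised CPM in the named library minus the mean of the other 5 animals of that group. Points climb with length in the 3 rRNA-rich libraries, most in refractory 4, while in late pre-hibernation 4 the core members (blue) lie mainly above 0 at all lengths.

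Levels between genes were compared as TPM, a scaled level that is divided by exon length, averaged over 36 libraries. Vamp2, the main vesicle SNARE of forebrain neurons, had the highest level at 180.7 TPM. It was followed by Vamp8 (164.1 TPM) and Stx12 (129.9 TPM), which act in endosomal traffic outside synapses. Stxbp3 stood at 89.95 TPM and Snap25, the neuronal SNARE of the target membrane, at 55.6 TPM. The calcium sensor Syt1 was lower, at 5.94 TPM, than Syt5 at 56.1 TPM and Syt4 at 39.7 TPM. The active zone genes were low: Rims2 reached 3.88 TPM, Bsn 2.09, Pclo 1.23 and Rims1 0.955 TPM. The lowest member was Sv2b at 0.390 TPM, while its relative Sv2a stood at 32.2 TPM. High levels were therefore found both among neuronal and among widely expressed members.

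**Figure D2:**
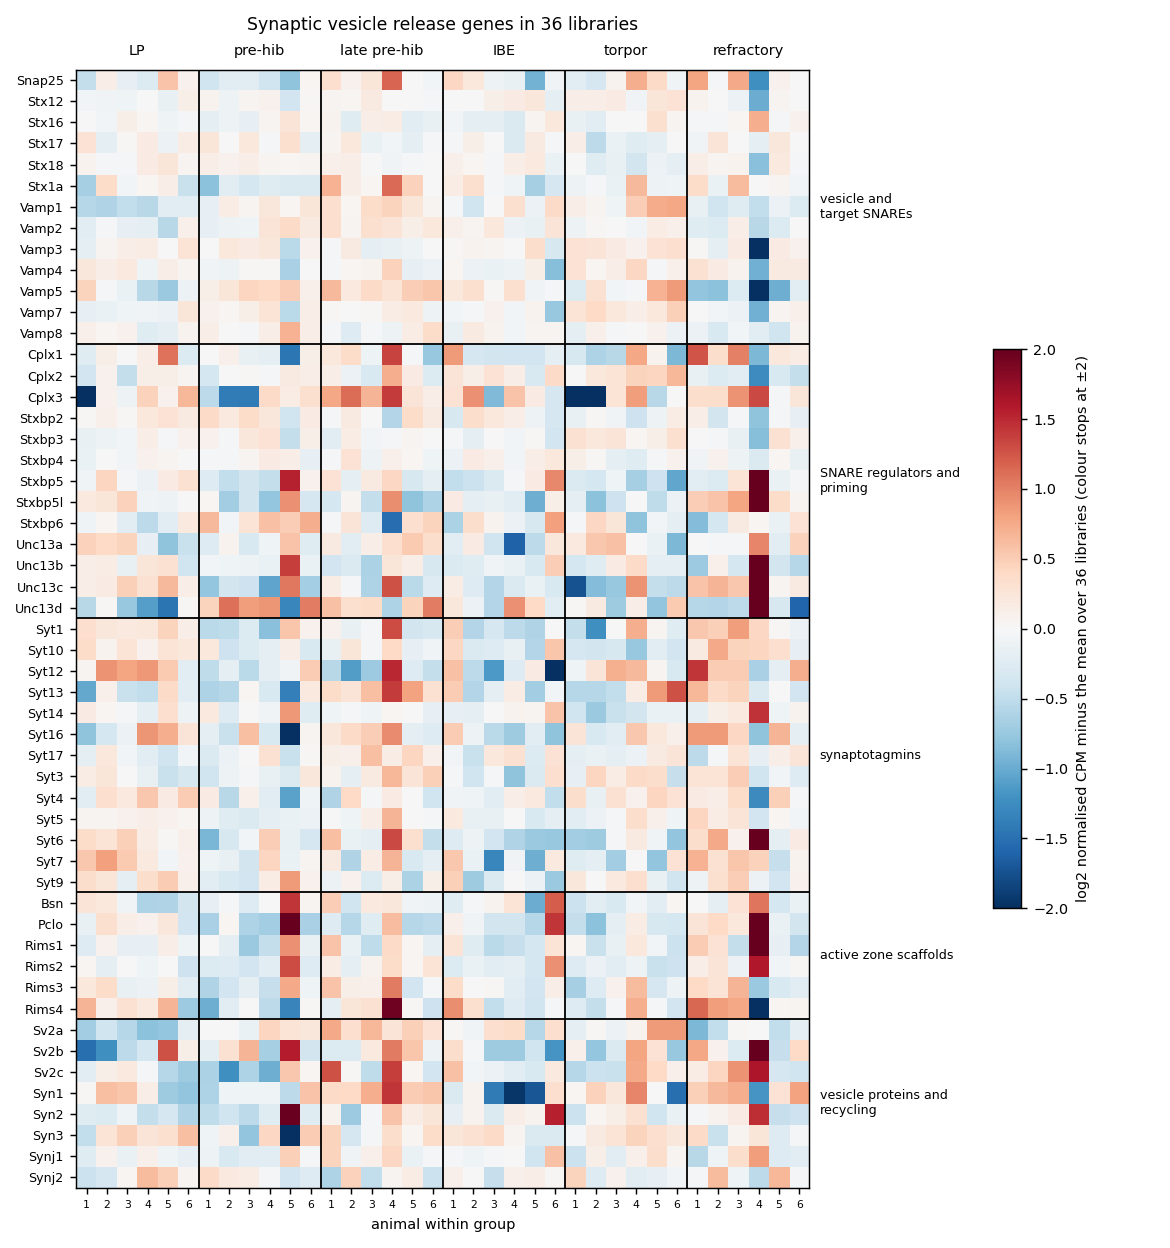
Rows are 53 members in order of role and columns the 36 animals in 6 groups; colour is log2 normalised CPM minus the member's mean over 36 libraries, stopping at ±2. Late pre-hibernation 4 is red across many core members, refractory 4 holds both deep red and deep blue cells, and Vamp1 and Sv2a are blue across the long photoperiod animals.

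Among the 6 groups Vamp1 and Sv2a, both vesicle proteins of neurons, and Vamp5, a SNARE of other traffic, differed with the smallest p. Tested among all 6 groups (edgeR quasi-likelihood test, adjusted p under 0.05 over 17926 genes), 9 of 55 members differed, against 14.6% of all genes tested. They were Vamp1, Sv2a, Vamp5, Stxbp5l, Syt10, Cplx2, Unc13c, Syt6 and Vamp2. Adjusted p ran from 0.000181 for Vamp1 to 0.0490 for Vamp2. By list, 5 of 24 core members, 1 of 15 widely expressed members and 3 of 16 others passed. Without the rRNA-rich libraries 18 members passed, against 27.7% of all genes. Of the 9, 8 were among these 18, and Syt6 was not (adjusted p = 0.0546). Among the added members were Stx1a, Syn1, Syt14, Vamp7, Stx18, Unc13d, Stxbp5, Stxbp3 and Rims2. With the neuron marker level as a covariate Vamp1, Sv2a, Vamp5, Cplx2 and Vamp2 passed, with no share of all genes given for that fit. Stxbp5l (adjusted p = 0.0992), Syt10 (0.164), Unc13c (0.185) and Syt6 (0.365) did not. Without torpor 6, 5 members passed, with no share of all genes given for that fit. Leaving out 1 library at a time, Vamp1, Sv2a, Vamp5 and Syt10 passed in all 36 fits. Stxbp5l failed without refractory 4 (adjusted p = 0.177). Unc13c failed without refractory 4 (0.277) and without torpor 2, 3, 5 or 6. Cplx2 failed without torpor 4, 5 or 6 or refractory 6. Syt6 passed in 25 of 36 fits. It failed without long photoperiod 1, pre-hibernation 6, late pre-hibernation 1, interbout 3, 4, 5 or 6, torpor 1, 2 or 6, or refractory 2. Vamp2 passed in 9 of 36 fits: those without long photoperiod 6, pre-hibernation 1 or 2, late pre-hibernation 2, interbout 5 or 6, or refractory 3, 4 or 6.

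The first comparison sets animals after 4 weeks of short days and cold against long photoperiod animals. The former were 4 months old and the latter are listed at 8 months, so age differs as well. Vamp1 and Sv2a rose in pre-hibernation against long photoperiod, 2 of 55 members, where 2.29% of all genes passed (1.61% higher and 0.681% lower). No member fell, and 9 had an unadjusted p under 0.05, beside 12.3% of all genes. Vamp1 is the vesicle SNARE typical of brainstem, spinal and fast-firing neurons. On long photoperiod its lowest, median and highest values were 23.8, 25.2 and 31.01 normalised CPM. In pre-hibernation they were 32.3, 38.8 and 42.6. All 6 pre-hibernation animals lay above all 6 long photoperiod animals. The log2 difference was 0.53 ± 0.13 (SE, n = 6 per group, edgeR adjusted p = 0.0232). Sv2a is the vesicle glycoprotein that binds the antiseizure drug levetiracetam. Its values were 40.9, 46.6 and 63.5 normalised CPM on long photoperiod and 65.6, 78.8 and 97.5 in pre-hibernation, again without overlap. Its log2 difference was 0.70 ± 0.18 (adjusted p = 0.0266). Without the rRNA-rich libraries both still passed (0.54 with adjusted p = 0.0105, and 0.67 with 0.0304). With the neuron marker covariate Vamp1 passed (0.59, adjusted p = 0.0200) and Sv2a did not (0.71, 0.0509).

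These calls were close to the threshold. Each held in 5 of 12 fits that left out 1 animal of the pair of groups. Vamp1 failed without long photoperiod 1, 2, 3 or 4 or pre-hibernation 2, 4 or 6, with a highest adjusted p of 0.0675. Sv2a failed without long photoperiod 1, 3, 4 or 5 or pre-hibernation 4, 5 or 6, with a highest adjusted p of 0.0833. Its log2 difference stayed between 0.63 and 0.78, and that of Vamp1 between 0.49 and 0.57. Against long photoperiod animals 1 to 3 alone the differences were 0.64 for Vamp1 and 0.68 for Sv2a. Against animals 4 to 6 alone they were 0.41 and 0.70, and neither gene passed in these smaller fits. Other markers moved between these groups. The 7 endothelial markers summed to 186 to 490 normalised CPM on long photoperiod and 108 to 195 in pre-hibernation. The 8 pituitary markers summed to 56.5 to 419 and 24.9 to 163. The neuron markers summed to 932 to 1069 and 810 to 1211. The 7 oligodendrocyte markers summed to 268 to 416 and 207 to 318. The 8 astrocyte markers summed to 4126 to 5285 on long photoperiod and 3325 to 4213 in pre-hibernation. The 8 neuroendocrine neuron markers summed to 357 to 2190 and 224 to 416. Apart from the neuron markers, each of these sums had a lower lowest and a lower highest value in pre-hibernation. The highest neuron sum in pre-hibernation, 1211, was in animal 5, an rRNA-rich library. Without that library the pre-hibernation mean of the neuron sum was 897 ± 84.7, beside 998 ± 57.6 on long photoperiod. No endothelial, oligodendrocyte, astrocyte, neuroendocrine neuron or neuron marker was at 0 in any of these animals, while 2 pituitary markers on long photoperiod and 4 in pre-hibernation were at 0 in at least 1 animal. The part of endothelial, pituitary, oligodendrocyte, astrocyte and neuroendocrine neuron material in the result was not tested.

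Other members in this comparison did not pass. Syt5, a synaptotagmin of secretory vesicles, was lower without overlap, at 70.3 ± 3.61 normalised CPM in pre-hibernation against 84.1 ± 2.11 (log2 difference -0.26 ± 0.12, adjusted p = 0.347). Of 13 synaptotagmins 11 had a negative log2 difference and none passed. Their median was -0.34, beside 0.01 over all genes. With the neuron marker covariate 9 were negative and the median was -0.08, beside 0.01. Non-overlapping values were found for 3 members (Vamp1, Sv2a and Syt5), beside 3.52% of all genes. Unc13d, a priming factor best known from cytotoxic immune cells, stood at 1.77 ± 0.715 against 0.769 ± 0.308 normalised CPM (adjusted p = 0.181). Its lowest pre-hibernation value, 0.449, was in animal 5, an rRNA-rich library. It passed without the 3 rRNA-rich libraries (1.39, adjusted p = 0.00369), where 3 of 55 members passed against 6.37% of all genes, but in none of the 12 fits that left out 1 animal. Vamp2 differed by 0.26 ± 0.11 (adjusted p = 0.309).

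**Figure D3:**
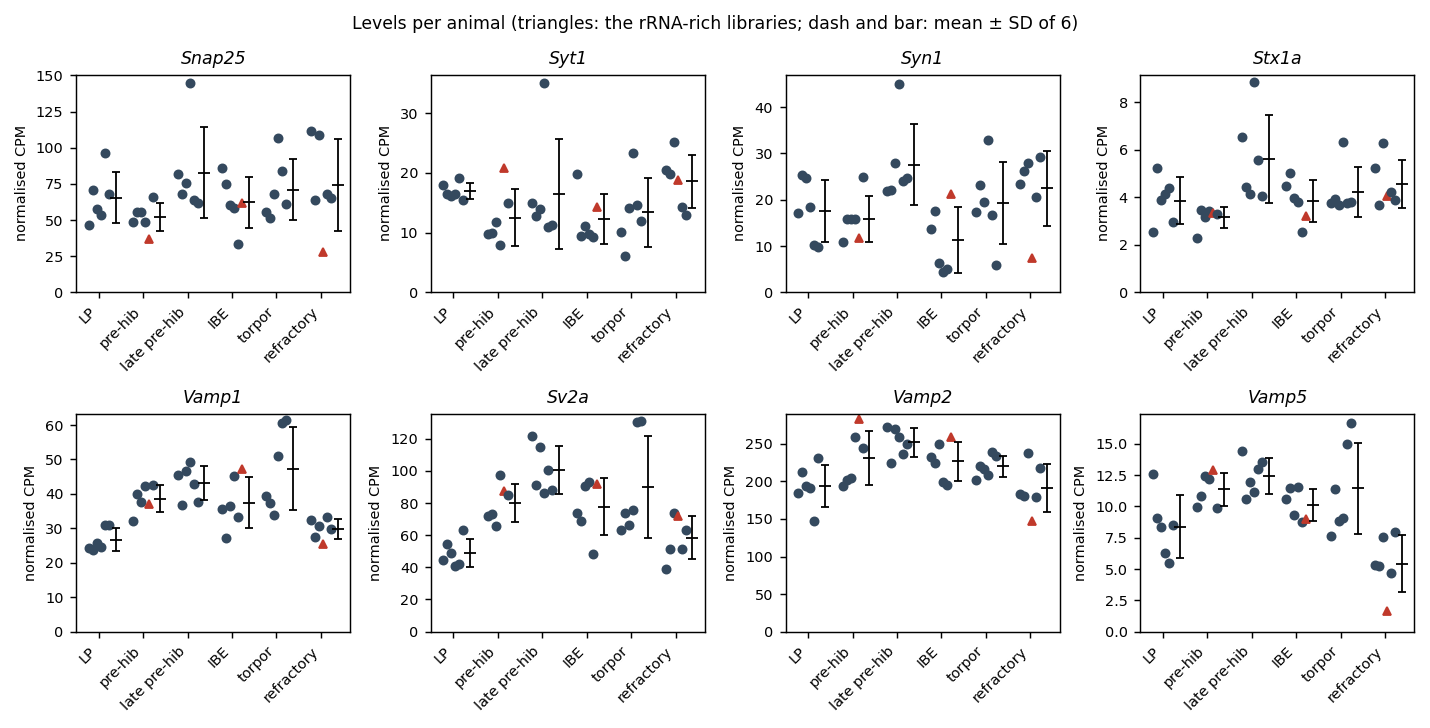
Normalised CPM of 8 members in each animal by group; each point is 1 animal, triangles are the rRNA-rich libraries, and the dash with its bar is the mean ± SD of 6. Vamp1 and Sv2a on long photoperiod lie below all pre-hibernation points, Syn1 in interbout euthermia lies below all late pre-hibernation points, and late pre-hibernation 4 is the highest point for Snap25, Syt1, Syn1 and Stx1a.

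The second comparison sets animals after 8 to 12 weeks in the cold, aged 6 months, against other animals after 4 weeks, aged 4 months. No member passed in late pre-hibernation against pre-hibernation with edgeR, DESeq2 or limma voom, and no gene of all genes did with edgeR (0%). At an unadjusted p under 0.05 there were 11 of 55 members, all higher, beside 4.12% of all genes. Among them were Stx1a, Syt13, Syt5, Snap25, Rims4, Sv2c, Syn1, Cplx3, Syt17 and Syt3. Stx1a is the syntaxin that receives vesicles at the terminal membrane. Its lowest, median and highest values were 2.29, 3.32 and 3.46 normalised CPM in pre-hibernation and 4.07, 5.01 and 8.84 in late pre-hibernation. The groups did not overlap (log2 difference 0.83 ± 0.21, adjusted p = 0.474). Syt13, a synaptotagmin that does not bind calcium, was 4.13, 7.93 and 12.3 against 12.7, 15.03 and 28.1, also without overlap (1.02 ± 0.30, adjusted p = 0.509). Snap25 was 37.1, 52.1 and 66.1 against 62, 72.1 and 144.8 normalised CPM, with overlap (0.67 ± 0.25, adjusted p = 0.936). Non-overlapping values were found for 3 members (Stx1a, Syt13 and Syt5), beside 0.413% of all genes.

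The highest of each late pre-hibernation set came from animal 4. Without it the log2 differences were 0.65 for Stx1a, 0.83 for Syt13, 0.43 for Snap25 and 0.19 for Syt5. With the neuron marker covariate they were 0.47, 0.68, 0.11 and 0.08. Of the 24 core members 20 had a positive log2 difference, with a median of 0.28, beside -0.02 over all genes. Without the rRNA-rich libraries all 24 were positive, with a median of 0.35 and none passing. With the neuron marker covariate 13 were positive and 11 negative, with a median of 0.08, beside -0.02 over all genes. The 15 widely expressed members had a median of -0.07. The summed level of the core was 847 ± 84.3 normalised CPM in pre-hibernation and 1017 ± 126 in late pre-hibernation. The neuron markers moved with it, at 950 ± 149 and 1173 ± 267.

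The third comparison sets animals between torpor bouts against animals that had not yet entered torpor. No member passed in interbout euthermia against late pre-hibernation with edgeR, and 0% of all genes did. There were 6 members at an unadjusted p under 0.05, all lower (Syn1, Stx1a, Syt6, Syt13, Syt3 and Sv2a), beside 6.16% of all genes. DESeq2 called 0 members and limma voom 1, with no share of all genes given for these tools. Syn1 is the synapsin that tethers reserve vesicles. Its values were 21.9, 24.3 and 44.99 normalised CPM in late pre-hibernation and 4.34, 10.0 and 21.2 in interbout euthermia. It was the only member whose groups did not overlap here, beside 0.669% of all genes. The log2 difference was -1.29 ± 0.35 (adjusted p = 0.333). Interbout 6, an rRNA-rich library, held the highest interbout value. Without the rRNA-rich libraries Syn1 fell by 1.55 and passed (adjusted p = 0.0325), 1 of 55 members against 0.855% of all genes. The interbout values of animals 1 to 6 were 13.7, 17.5, 6.28, 4.34, 5.10 and 21.2 normalised CPM, so the spread within this group was wide.

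Syn2, the relative of Syn1, stood at 6.68 ± 1.78 normalised CPM in late pre-hibernation and 8.17 ± 5.00 in interbout euthermia. Without interbout 6 the latter was 6.14 ± 0.731, below late pre-hibernation. The log2 ratio of Syn1 to Syn2 in each library, which does not depend on library scaling, was 2.03 ± 0.334 in late pre-hibernation and 0.362 ± 0.835 in interbout euthermia, without overlap. The difference of -1.67 had the smallest p that 6 against 6 allows (exact two-sided permutation test, p = 0.00217, adjusted p = 0.104 over 48 ratio tests). It was -1.64 without the rRNA-rich libraries. Ratios of 8 pairs of related members were tested in 6 comparisons. None of the 48 passed after adjustment, and 10 had an unadjusted p under 0.05. A single ratio at the smallest possible p has an adjusted p of 0.104 over 48 tests. It could therefore not pass alone, and its failure to pass says nothing on whether that ratio changed.

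The fourth comparison sets torpid animals against warm animals between bouts. No member passed in torpor against interbout euthermia with edgeR, where 4.06% of all genes did (1.13% higher and 2.93% lower). There were 8 members at an unadjusted p under 0.05, beside 15.3% of all genes. DESeq2 called 1 member and limma voom 5, with no share of all genes given for these tools. Vamp7, a SNARE of late endosomes and lysosomes, was 46.8, 50.6 and 59.4 normalised CPM in torpor and 25.4, 41.4 and 45.4 in interbout euthermia. The groups did not overlap, and its log2 difference was 0.39 ± 0.13 (adjusted p = 0.103). Stxbp3 (Munc18c), which serves surface delivery of vesicles in many cell types, was 131.4, 150.2 and 159.5 against 97.9, 123.6 and 130.2, also without overlap (0.31 ± 0.12, adjusted p = 0.176). Vamp1 was higher by 0.34 ± 0.13 (adjusted p = 0.180). Non-overlapping values were found for 2 members (Vamp7 and Stxbp3), beside 3.93% of all genes.

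Interbout 6 held the lowest value of its group for both genes. Without the rRNA-rich libraries 4 of 55 members passed, against 8.94% of all genes. Vamp7 (0.27, adjusted p = 0.0145) and Stxbp3 (0.24, 0.0331) rose in torpor. Stx18, a syntaxin of the endoplasmic reticulum, fell by 0.27 (0.00463), and Syt14 fell by 0.33 (0.0422). Of these 4, 3 belong to the widely expressed list and none to the neuronal release core, and whether the lists differ was not tested. The core had a median log2 difference of 0.12, and 0.07 without the rRNA-rich libraries, beside 0.01 and 0.00 over all genes. Among core members Snap25 stood at 71.1 ± 20.9 normalised CPM in torpor and 62.3 ± 17.7 in interbout euthermia. Syt1 stood at 13.4 ± 5.80 and 12.3 ± 4.12. Their ranges overlapped.

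The fifth comparison sets animals that had ended hibernation against animals between bouts. Vamp5 fell and Syt6 and Stxbp5l rose in refractory against interbout euthermia, 3 of 55 members, where 3.5% of all genes passed (2.04% higher and 1.47% lower). There were 17 members at an unadjusted p under 0.05, beside 19.3% of all genes. Vamp5 is a SNARE first described in muscle. Its values were 8.74, 9.97 and 11.5 normalised CPM in interbout euthermia and 1.68, 5.28 and 7.97 in refractory animals. The groups did not overlap, beside 1.28% of all genes, and refractory 4 held the lowest value. The log2 difference was -0.83 ± 0.21 (adjusted p = 0.0234). Without refractory 4 it was -0.71 (adjusted p = 0.0519), and without all 3 rRNA-rich libraries -0.74 (0.0386). The call also failed without interbout 2 or 4. With the neuron marker covariate it was -0.78 (adjusted p = 0.108).

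Syt6, a synaptotagmin relative of Syt3 and Syt10, was 1.60, 1.92 and 2.499 normalised CPM in interbout euthermia and 2.39, 3.23 and 12.8 in refractory animals. Stxbp5l (tomosyn-2), which binds syntaxin in place of the vesicle SNARE, was 2.10, 3.67 and 4.62 against 4.28, 5.95 and 29.3. In both genes refractory 4 was the highest value by a wide margin. The log2 differences were 1.18 ± 0.32 (adjusted p = 0.0353) and 1.30 ± 0.36 (0.0364). Without refractory 4 they were 0.72 (0.146) and 0.65 (0.199), and 0 members passed. The Syt6 call also failed without interbout 3, 4, 5 or 6, and the Stxbp5l call without interbout 2, 3, 4 or 5. The count of passing members was 1 without interbout 2 or 3 and 0 without interbout 4. It was 6 without refractory 3 and 5 without refractory 6, with no share of all genes given for these fits. Without all rRNA-rich libraries 2 of 55 members passed, against 3.02% of all genes. They were Vamp5 and Syn1, and Syn1 rose by 1.43 (adjusted p = 0.0296).

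With all libraries Syn1 was 7.40, 24.8 and 29.2 normalised CPM in refractory animals, refractory 4 being the lowest, and its log2 difference was 1.03 ± 0.35 (adjusted p = 0.0946). Cplx2, the complexin of many forebrain synapses, was lower, at 10.3 ± 2.39 against 15.2 ± 2.36 normalised CPM (-0.53 ± 0.16, adjusted p = 0.0612). It passed with the neuron marker covariate (-0.72, 0.0307). Unc13c, a priming factor best known from the cerebellum, had a log2 difference of 1.54 ± 0.46 (adjusted p = 0.0502), and of 0.65 without refractory 4. The active zone genes depended on the same library: Pclo, a giant scaffold protein of the active zone, differed by 1.06 with all libraries and by -0.09 without refractory 4, and Rims1 by 1.24 and 0.11. Pituitary markers were also uneven here, summing to 25.0 to 34.1 normalised CPM in interbout euthermia and 33.6 to 783 in refractory animals. The 8 neuroendocrine neuron markers summed to 232 to 402 and 315 to 1641. The part of this material in the result was not tested.

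The last comparison asks whether refractory animals had returned to the long photoperiod state. No member passed in refractory against long photoperiod with edgeR, DESeq2 or limma voom, where 0.329% of all genes passed with edgeR (0.0781% higher and 0.251% lower). No member's groups were free of overlap, beside 0.547% of all genes. There were 5 members at an unadjusted p under 0.05, beside 13% of all genes. Stxbp5l led (1.00 ± 0.36, adjusted p = 0.182), followed by Rims1 (1.17 ± 0.42, 0.191) and Vamp5 (-0.56 ± 0.21, 0.213). Without refractory 4 these were 0.34, 0.04 and -0.44. Vamp1 stood at 29.8 ± 2.93 normalised CPM in refractory animals against 26.7 ± 3.35 on long photoperiod, and Sv2a at 58.5 ± 13.6 against 49.1 ± 8.64. Both genes had their lowest group mean on long photoperiod and their next lowest in refractory animals. The highest mean of Vamp1 was in torpor (47.3 ± 12.1) and that of Sv2a in late pre-hibernation (100.5 ± 14.8). In torpor the 6 animals had 39.4, 37.4, 33.9, 51.0, 60.6 and 61.4 normalised CPM of Vamp1, a wider spread than in the other groups. Groups are shared between these comparisons, so their differences are not independent of each other.

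**Figure D4:**
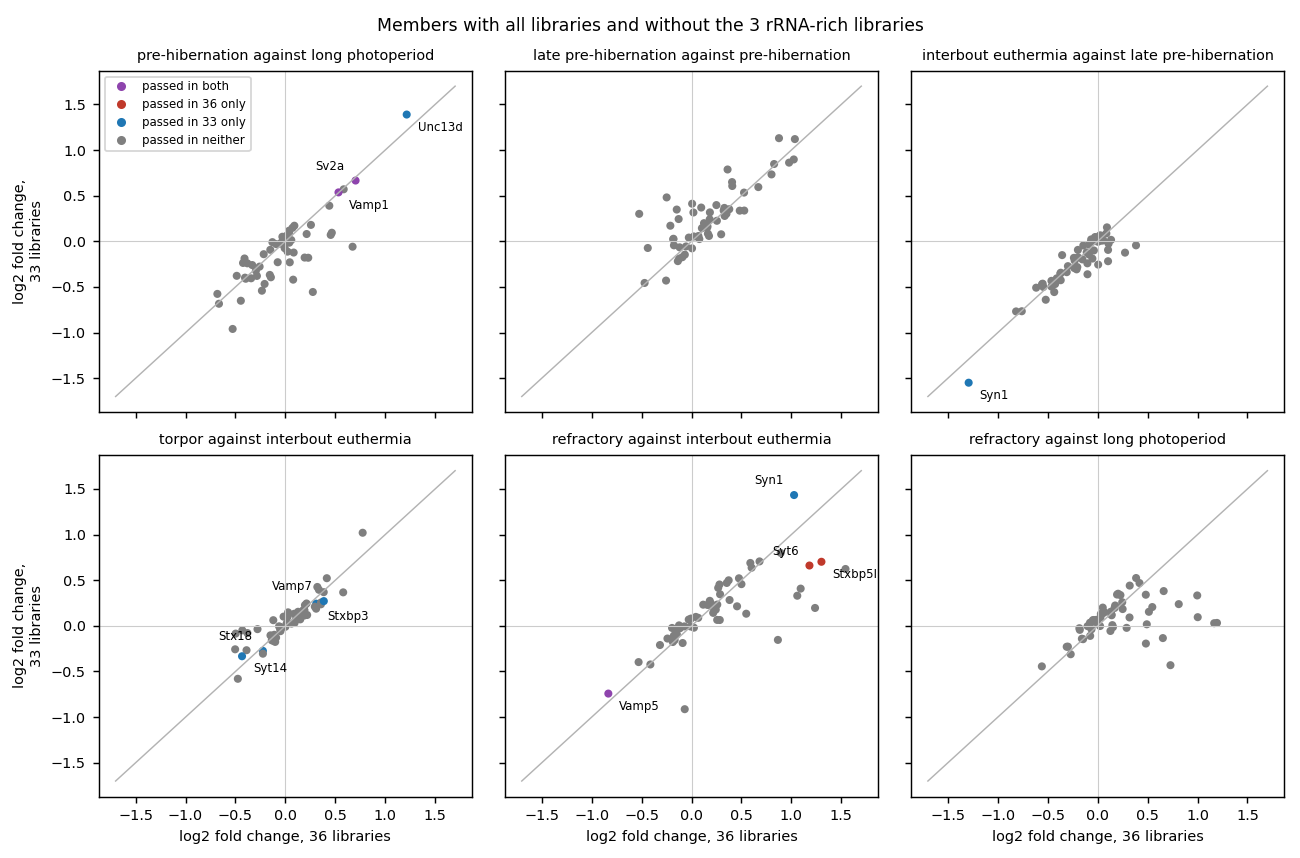
Each panel is 1 comparison and each point 1 of 55 members: the horizontal axis is the log2 fold change with all 36 libraries and the vertical axis that with the 33 libraries left without the rRNA-rich ones. Colours mark where a member passed, and the points far below the diagonal in both refractory panels are members whose difference shrinks without refractory 4.

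As a gauge of neuronal material, single members differed widely. The level of each member was compared with the mean log2 CPM of the 18 neuron markers over 36 libraries, with group means removed. Of 55 members 15 had a positive and 2 a negative Pearson correlation that passed (permutation test within groups, adjusted p under 0.05 over 55 members). The test was run on the members only, so these counts have no share of all genes beside them. Of the 24 core members 11 passed positively, as did 4 of the 16 in neither list. Of the 15 widely expressed members none did, and Stxbp2 (r = -0.488) and Stxbp6 (r = -0.535) passed negatively. Both had an adjusted permutation p of 0.0276. Their Spearman's rho was -0.338 and -0.292, with adjusted p of 0.112 and 0.181. Stxbp6 (amisyn) had r = -0.304 without the 2 libraries farthest from the median of the neuron level, late pre-hibernation 4 and refractory 1.

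Syt1, the fast calcium sensor of forebrain synapses, followed the neuron markers most closely (r = 0.886, permutation p = 1e-05, the smallest these permutations can give, adjusted p = 0.000275, rho = 0.813). Its r was 0.858 without the 2 farthest libraries and was positive within all 6 groups. Rims3 had r = 0.772, Syt5 0.760, Snap25 0.674 and Stx1a 0.656, with adjusted permutation p from 0.000275 to 0.0011. Without the 2 farthest libraries these were 0.715, 0.663, 0.581 and 0.559. Snap25 had r = 0.923 without the rRNA-rich libraries, where its rho was 0.902. Core members that did not pass included Vamp1 (r = 0.224), Vamp2 (0.218), Unc13a (0.081) and Sv2a (0.028). Vamp1 and Sv2a, which differed among the groups, were not among the members that passed here. The count that passed in either direction was 17 with all libraries, 27 without the rRNA-rich libraries, 26 without refractory 4 and 7 without late pre-hibernation 4.

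**Figure D5:**
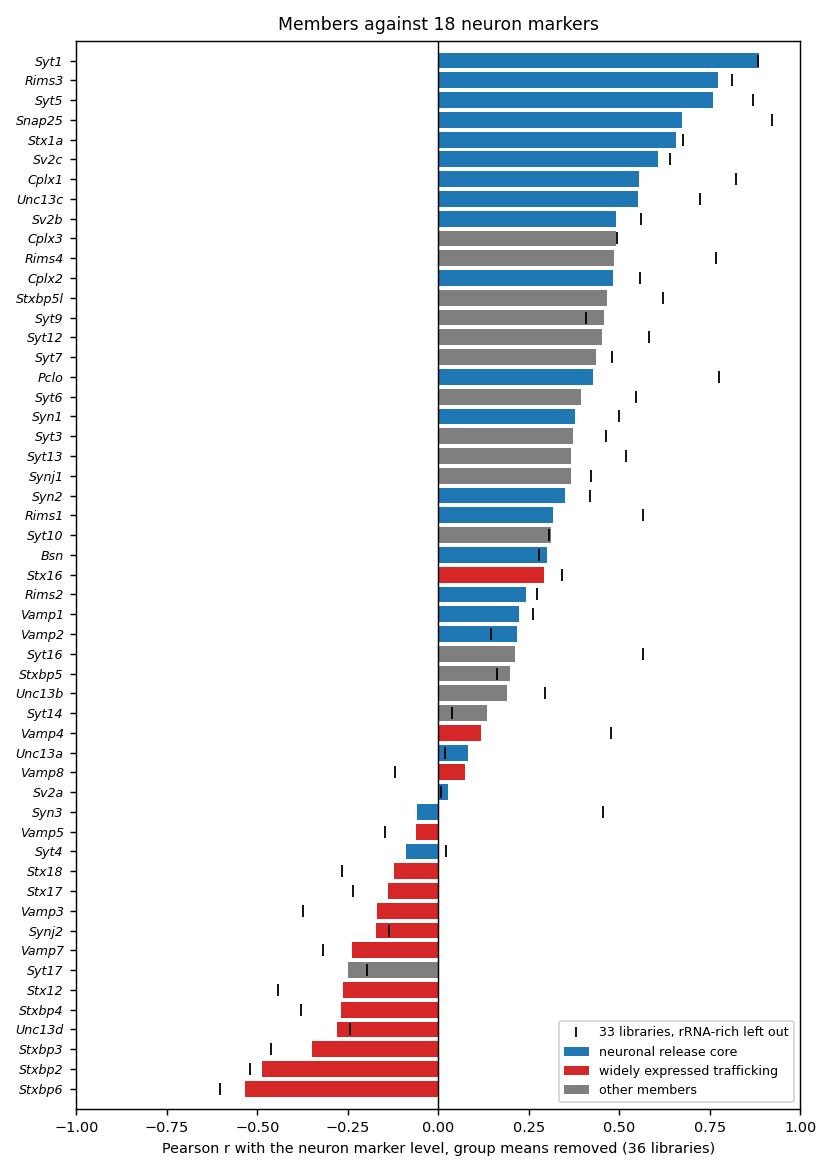
Bars give the Pearson r of 53 members with the mean log2 CPM of 18 neuron markers over 36 libraries after removing group means; black ticks give r in the 33 libraries without the rRNA-rich ones, and colours the 3 lists. Core members reach 0.886 at the top, most widely expressed members lie below 0, and Vamp1, Vamp2 and Sv2a lie below 0.25 within the core.

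Summed over its genes, the core stood at 801 ± 54.5 normalised CPM on long photoperiod. It was 873 ± 99.5 for interbout animals, 923 ± 102 for torpid and 873 ± 81.3 for refractory ones, beside the values given above for the earlier stages. The neuron markers summed to 998 ± 57.6 on long photoperiod, and to 1011 ± 175, 989 ± 151 and 1058 ± 201 at those later stages. Both sums were highest in late pre-hibernation, while the lowest group was long photoperiod for the core and pre-hibernation for the markers. The covariate and correlations used the mean log2 CPM of the markers instead. By that measure the highest group mean was in refractory animals. Its lowest and highest libraries were 4.13 and 4.79 there, 3.99 and 5.13 in late pre-hibernation and 4.08 and 4.58 on long photoperiod. They were 3.71 and 4.37 in pre-hibernation, 3.55 and 4.63 in interbout euthermia and 3.62 and 4.71 in torpor. The widely expressed members summed to between 679 ± 105 (refractory) and 761 ± 41.7 (torpor). Without refractory 4 the refractory sum was 720.5 ± 30.5. With all 3 rRNA-rich libraries left out the lowest group was long photoperiod (714.8 ± 29.7).

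Among the remaining SNAREs, Vamp8 ran from 61.98 ± 7.19 normalised CPM to 79.9 ± 16.6 and Stx12 from 153.6 ± 34.7 (refractory) to 186.1 ± 15.8 (torpor). Without refractory 4 the refractory mean of Stx12 was 167.4, above long photoperiod (162.9). Vamp2 was highest in late pre-hibernation (252.1 ± 19.0) and lowest in refractory animals (191.1 ± 32.1), and its group ranges overlapped in all 6 comparisons. Without refractory 4 the refractory mean of Vamp2 was 199.9, and long photoperiod was lowest (193.6). Vamp5 was lowest in refractory animals (5.41 ± 2.27) and highest in late pre-hibernation (12.5 ± 1.46).

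Of the synaptotagmins, Syt10 differed among the 6 groups, though not with the neuron marker covariate (adjusted p = 0.164), and passed in none of the 6 comparisons. It is the calcium sensor of a peptide-carrying vesicle in olfactory bulb neurons of mice. Its lowest, median and highest values were 5.17, 6.82 and 7.48 normalised CPM in torpor and 7.81, 11.4 and 14.7 in refractory animals. The mean was 10.1 ± 0.806 on long photoperiod and between 7.99 and 9.05 in the remaining groups. Syt4, which resides on peptide vesicles, had 43.3 ± 7.90 normalised CPM on long photoperiod against 30.8 ± 8.81 in pre-hibernation (-0.49 ± 0.20, adjusted p = 0.255). The priming factor Unc13a and the complexin Cplx1 passed in none of the 6 comparisons. Cplx1 ran from 3.90 ± 1.18 normalised CPM (pre-hibernation) to 6.22 ± 2.95 (refractory), and Unc13a from 4.90 ± 1.83 (interbout) to 7.11 ± 2.52 (refractory). Both orders rested in part on rRNA-rich libraries. Without pre-hibernation 5 the pre-hibernation mean of Cplx1 was 4.36, and torpor was lowest (3.99). Without refractory 4 the refractory mean of Unc13a was 6.18, and late pre-hibernation was highest (7.00).

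Single libraries weighed on the group means of the active zone scaffolds. Pclo stood at 28.8 ± 40.9 normalised CPM in refractory animals and at 12.2 ± 2.54 without animal 4. In pre-hibernation it was 14.5 ± 15.9, and 8.07 ± 1.98 without animal 5. Bsn, the partner scaffold of Pclo, was 21.9 ± 12.6 in pre-hibernation and 16.8 ± 1.45 without animal 5. The ratio of the highest to the lowest library was 17.5 for Pclo and 15.6 for Rims1 over 36 libraries. It was 2.72 and 2.47 over the 33 without the rRNA-rich libraries. Members of other roles spread as widely, with ratios of 31.6 for Unc13c and 28.9 for the synapsin Syn3, and of 8.07 and 2.61 over those 33. Among vesicle proteins, Synj1, which removes the clathrin coat in recycling, ran from 19.1 ± 1.86 (long photoperiod) to 22.1 ± 3.92 (late pre-hibernation) and passed in no comparison. Without pre-hibernation 5 its lowest mean was in pre-hibernation (17.8). Sv2b and Sv2c, the less common relatives of Sv2a, were highest in refractory animals, at 2.08 ± 2.14 and 5.07 ± 2.97, where animal 4 held the highest value of both. Without it they stood at 1.22 and 3.99, below late pre-hibernation (1.31 and 4.83).

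Other genes of the vesicle cycle that are not members were counted beside them. Of 45 tested, 7 differed among the 6 groups, against 14.6% of all genes (Napg, Rimbp2, Ppfia2, Sncb, Slc32a1, Cadps and Dnm1), and 16 did without the rRNA-rich libraries, against 27.7%. In the 6 comparisons the single call was Napg, gamma-SNAP, which helps take spent SNARE complexes apart. It fell in torpor against interbout euthermia without overlap (-0.45 ± 0.08, adjusted p = 0.000527). Slc32a1, the vesicular transporter of GABA and glycine and also 1 of the neuron markers, was lower in pre-hibernation than on long photoperiod without overlap (-0.88 ± 0.29, adjusted p = 0.120). It was higher in late pre-hibernation than in pre-hibernation without overlap (0.95 ± 0.29, adjusted p = 0.612). Of 11 genes of dense-core vesicles, which carry peptides, 1 differed among the groups: Chga, chromogranin A (adjusted p = 0.0172). Its largest difference was -0.83 ± 0.26 in pre-hibernation against long photoperiod (adjusted p = 0.0917).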

How the data were processed

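Total RNA of the laser-captured tissue was sequenced for 36 libraries, with library construction by BGI on an Illumina instrument and RNA integrity numbers of 7 to 9, per the labels. The deposited values are raw fragment counts per gene, made with featureCounts 2.0.1 over exons of the RefSeq annotation of BCM_Maur_2.0, paired and without strand, per the file headers. No source used here states the aligner's version. Without strand, reads of overlapping genes cannot be told apart: 10 members share exon bases with another gene.

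From these counts edgeR 4.0.16 (R 4.3.3) fitted all 36 libraries with TMM scaling, filterByExpr and robust quasi-likelihood dispersion, with 6 group means. Benjamini-Hochberg adjustment ran over all 17926 genes tested, and a gene passed at an adjusted p under 0.05. Each adjusted p in the text is from this edgeR test unless another is named. DESeq2 1.42.0 and limma 3.58.1 (voom with a quality weight for each library) were alternatives. Counts from voom therefore differ from those of edgeR in the weighting of libraries as well as in the tool. Normalised CPM uses the TMM-scaled library size, and log2 CPM a prior count of 2. The standard error of a log2 difference was its size divided by the square root of F. Ratios of related members used CPM + 0.1 and exact permutation tests. Correlations used 100000 permutations within groups. Values are mean ± SD of 6 animals unless named as a standard error. The scripts were tested on simulated data.

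Members and gene lists were chosen with earlier results of these data known, so no list is independent evidence. Genes named with values were a set of well-known members, every member that passed in a comparison or among the groups, the 3 lowest p-values of each comparison, and the highest and lowest level per length. Some members enter the fits and counts but are not reported here by name. Further genes were named after their values were seen. Replicate numbers did not pair animals. Over 90 same-numbered pairs from different groups the median correlation was 0.008, beside -0.001 for pairs of other numbers. Of the 90, 23 had a correlation above 0.1, and 2 of 36 libraries were closest to their own number.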

Additional observations from a re-analysis of the deposited data

Results flagged for a closer look

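For 27 named members the 6 animals of each group were checked for a value far from the others, 162 groups in all, and 41 were found. Chance alone gives about 1 in 20 for independent, normally distributed values. The genes checked share the same libraries, so the 41 are not independent of each other and cannot be judged by that rate. All values are normalised CPM, and each stood at the top of its group unless given as lowest.

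Pre-hibernation 5 stood apart for Bsn (47.44), Pclo (46.81), Rims1 (7.187), Stxbp5l (7.726), Syn2 (24.53), Synj1 (27.85), Unc13a (8.804) and Unc13c (8.625), and as the lowest for Cplx1 (1.617) and Vamp7 (29.47). Refractory 4 stood apart for Bsn (36.98), Pclo (112.3), Rims1 (35.63), Stxbp5l (29.25), Sv2b (6.387), Syn2 (17.48), Syt6 (12.77), Unc13c (39.33) and Unc13d (5.715), and as the lowest for Vamp7 (21.85). Interbout 6 did so for Pclo (30.41), Syn2 (18.28) and Synj1 (30.1), and as the lowest for Vamp7 (25.39). These are the 3 rRNA-rich libraries.

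Late pre-hibernation 4, which had the highest neuron marker sum, stood apart for Cplx1 (11.23), Pclo (17.42), Snap25 (144.8), Stxbp5l (7.855), Syn1 (44.99), Syt1 (35), Syt5 (127.2) and Unc13c (10.03). The remaining values were spread over other animals. Cplx1 was high in interbout 1 (7.935) and long photoperiod 5 (9.311), and Sv2b in long photoperiod 5 (2.609). Vamp7 was high in long photoperiod 6 (50.34) and Syn1 in pre-hibernation 6 (24.82). Stx1a was lowest in pre-hibernation 1 (2.286) and high in torpor 4 (6.346), where Unc13c was high (7.703) and Syt10 lowest (5.165).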

How the results depend on the processing

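Counts of members that passed depended on the libraries and the tool. Shares of all genes are given only for edgeR with all libraries and without the rRNA-rich ones. For every other fit the count of members has no such share beside it. Whether all genes shifted alike in those fits is therefore not shown. In pre-hibernation against long photoperiod (2 passed), limma voom gave 10, no filter beyond 1 count gave 1, the neuron marker covariate 1, fitting only both groups 4, and long photoperiod animals 1 to 3 or 4 to 6 alone 0. Pclo reversed there with voom (-0.605), and the cause was not tested. Its pre-hibernation mean was 14.5 normalised CPM with animal 5, an rRNA-rich library, and 8.07 without it, beside 11.8 on long photoperiod. Leaving out 1 animal gave 0 to 2. In interbout euthermia against late pre-hibernation (0), voom gave 1, leaving out the rRNA-rich libraries 1, and that with the covariate 1. In torpor against interbout euthermia (0), DESeq2 gave 1, voom 5, neuron and oligodendrocyte covariates 1, only both groups 1, no rRNA-rich libraries 4, and that with the neuron covariate 6. In refractory against interbout euthermia (3), DESeq2 gave 6, no filter 5, the neuron covariate 1, both covariates 1, only both groups 0, and the covariate without rRNA-rich libraries 1. Leaving out 1 animal gave 0 to 6. Among the 6 groups (9), voom gave 30, the neuron covariate 5, both covariates 5, no rRNA-rich libraries 18, and that with the covariate 14. Leaving out 1 animal gave 5 to 12. The neuron marker correlations (17) were 27 without the rRNA-rich libraries and 7 to 26 without 1 library. The covariate without rRNA-rich libraries was chosen after seeing the data. With the replicate block, 7 members differed among the groups, 2 passed in pre-hibernation against long photoperiod and 2 in refractory against interbout euthermia. The block gave 0 in the other 4 comparisons and 0 paralogue ratios, and the numbers do not pair animals. For single genes, 5499 values kept direction and side of the threshold, 122 lost and 84 gained a call, and 1 reversed. Depth limits the members outside the 47 of 55 that had at least 10 counts in every library.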
